A study of Homo sapiens with 12 samples.

Results

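N/TERT-2G keratinocytes transfected with an siRNA against APOE were compared with the same cells transfected with a negative control siRNA. N/TERT-2G is a single line of human keratinocytes, immortalised with telomerase. The comparison takes the 3 libraries labelled as APOE knockdown and the 3 labelled as negative control, which are 6 of the 12 libraries of the series, and every gene in the count table. Per the labels, each well of a 6-well plate was given siRNA (100 pmol) complexed with Lipofectamine (5 μl), alike in both groups, and the medium was changed after 6 h. The other 6 libraries, transfected in the same way with ATF3 siRNA or CXCL14 siRNA (3 each), contribute to the estimate of spread and are used to ask which changes also separate APOE siRNA from other targeting siRNAs. The siRNA sequences, the time from transfection to RNA extraction and whether replicates were separate cultures are not given in the sources used here. The p-values below therefore measure the spread between these libraries, which may be technical.

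Apolipoprotein E, the product of APOE, is a secreted protein that coats lipoprotein particles and binds lipoprotein receptors, through which cells take up cholesterol and other lipids. It is also an acceptor for cholesterol exported by ABCA1 and ABCG1, and its gene is a target of the liver X receptors, the nuclear receptors that sense oxysterols. Skin makes APOE outside the liver, and keratinocytes are among its sources. A cultured keratinocyte divides while it holds a basal programme (KRT5, KRT14, integrins) and, on differentiating, switches on spinous and then cornified envelope genes. The series was made in the context of lichen sclerosus of the vulva, and this comparison asks what knockdown of APOE changes in keratinocytes.

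Total counts were 19383579, 18799324 and 16598426 in the APOE siRNA libraries, against 16362761, 16255187 and 16225691 in the control siRNA libraries. A count of 0 in a library allows up to 0.155 to 0.181 CPM with APOE siRNA and 0.183 to 0.185 CPM with control siRNA (3 counts), which covers counting error only, as do the intervals below. Levels are CPM, counts relative to the library total scaled by the trimmed mean of M-values (TMM), in the order of the replicate numbers. Differences are log2 fold changes ± SE, APOE siRNA over control siRNA, from the quasi-likelihood test of edgeR, and a gene is said to have risen or fallen where its p adjusted over 14920 tested genes is under 0.05. Levels of different genes are not compared, since CPM are not corrected for length. Beside the largest changes and the 5 members of each gene list with the smallest p, further list members were named after their values were seen. Of the 232 genes chosen by rule, 41 overlap another tested gene, 40 of them one on the opposite strand, among them PLTP with CTSA, TP53INP1 with NDUFAF6, ATP5MF with CPSF4 (and with PTCD1 on its own strand), DCBLD1 with GOPC, DAZAP2 with SMAGP and ERBB2 with MIEN1. The sources used here do not say whether counting used strand, so the reads of such pairs may not be fully separated. All 7 keratinocyte markers (KRT5, KRT14, TP63, ITGA6, ITGB4, SFN and KRT17) were measured, with a summed level of 44060 to 47810 CPM with APOE siRNA against 28500 to 32370 CPM with control siRNA.

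The targeted transcript was nearly gone. APOE (ENSG00000130203, chr19:44905754-44909393, hg38) had 2, 5 and 3 counts with APOE siRNA, against 46, 59 and 51 counts with control siRNA. Relative to depth, the summed counts stood at a ratio of 0.0595 (95% counting interval 0.028 to 0.112). In the ATF3 siRNA and CXCL14 siRNA libraries APOE averaged 3.88 and 5.88 CPM. The level was low throughout, 0.19 ± 0.0841 CPM with APOE siRNA and 3.18 ± 0.404 CPM with control siRNA (SD, n = 3 each). Of the other genes targeted in the series, CXCL14, a chemokine made by epithelia, went the other way, with 234, 78 and 142 counts with APOE siRNA against 7, 6 and 11 counts with control siRNA (4.11 ± 0.48, edgeR adjusted p = 3.48e-06). ATF3, a stress-induced transcription factor, had 42.4, 38.8 and 44.7 CPM with APOE siRNA, against 43, 43 and 40.5 CPM with control siRNA, and did not pass (-0.01 ± 0.07, edgeR adjusted p = 0.932). Exact two-sided permutation of the CPM gave p = 0.1 for APOE and for CXCL14, the smallest p that 3 libraries against 3 allow, and p = 0.8 for ATF3.

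The change spread over much of the transcriptome. Of 14920 genes tested, 6681 passed (44.8%), 3327 of them higher with APOE siRNA (22.3%) and 3354 lower (22.5%), and the median gene moved by 0.01 on the log2 scale. Most of these changes were small: 538 genes were at least 2-fold higher (3.61%) and 665 at least 2-fold lower (4.46%). The 3 APOE siRNA libraries lay wholly above the 3 control libraries in 4065 genes (27.2%) and wholly below them in 4057 (27.2%). Among the genes that rose, 3225 of 3327 had CPM that did not overlap between the groups, and among those that fell 3274 of 3354. On the second principal component of all 12 libraries (23.4% of the variance) the APOE siRNA libraries lay together, away from the control libraries, while the first (44.2%) set CXCL14 siRNA apart. With shares this high over all genes, a list of genes is read below against 22.3% higher and 22.5% lower. In bulk RNA, more RNA per cell and more cells of a kind cannot be told apart, which holds for every level given.

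**Figure D1:**
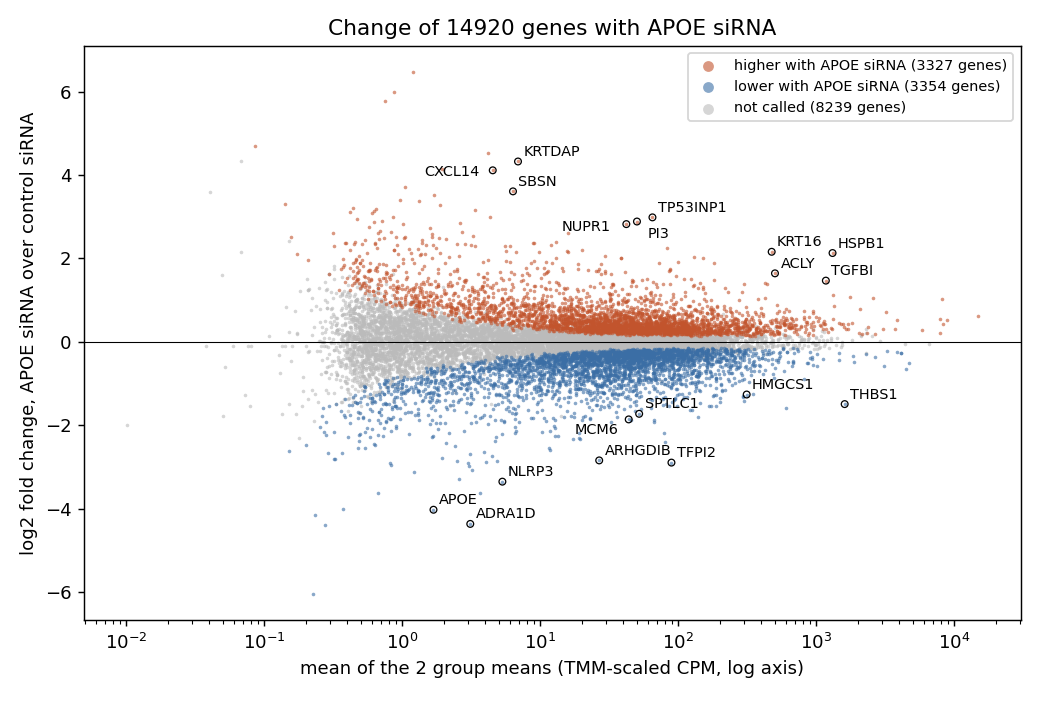
Each point is a tested gene, with the mean of its 2 group levels (TMM-scaled CPM, log axis) across and its log2 fold change, APOE siRNA over control siRNA, upward; colour shows the edgeR call at adjusted p under 0.05. Called genes lie on both sides in similar numbers (3327 higher, 3354 lower). Among the genes labelled in the plot, CXCL14 (4.11) and KRTDAP (4.32) are at the top and APOE (-4.02) and ADRA1D (-4.36) at the bottom. Over all genes tested the values run from -6.04 to 6.47.

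Genes that handle lipoproteins and sterols moved in both directions. Among ligands and receptors of lipoproteins, of 24 members tested, 8 were called higher and 5 lower, with a median log2 fold change of 0.00, APOE itself being 1 of those that were lower. SCARB1, the HDL receptor, rose, with 276, 302 and 318 CPM with APOE siRNA, against 185, 197 and 204 CPM with control siRNA (0.61 ± 0.07, edgeR adjusted p = 3.09e-06). SORL1 and LRP8, endocytic receptors for lipoproteins and other ligands, fell: SORL1 had 181, 178 and 159.9 CPM with APOE siRNA, against 317, 286 and 268 CPM with control siRNA (-0.75 ± 0.09, edgeR adjusted p = 2.89e-06), and LRP8 had 25.9, 32.7 and 29.6 CPM with APOE siRNA, against 50.1, 51.7 and 46 CPM with control siRNA (-0.75 ± 0.09, edgeR adjusted p = 3.34e-06). LRP1 (0.64 ± 0.14), LRP11 (0.93 ± 0.19) and SORT1 (0.66 ± 0.13), further members of the list, rose. APOL2, an intracellular apolipoprotein L, fell to 25.2, 26.8 and 23.6 CPM with APOE siRNA, against 41.3, 40.9 and 49.2 CPM with control siRNA.

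Of the targets of the liver X receptors, 8 of 17 rose (47.1%) and 3 fell (17.6%). PLTP, which transfers phospholipid between lipoproteins, had 152, 150.3 and 168 CPM with APOE siRNA, against 38.3, 40.8 and 45.6 CPM with control siRNA (1.92 ± 0.09, edgeR adjusted p = 3.76e-10). ABCG1, a sterol exporter, rose (0.77 ± 0.08), as did SREBF1, which encodes the master regulator of fatty acid synthesis (0.79 ± 0.09). ABCA1, the exporter that loads cholesterol onto apolipoproteins, fell (-0.31 ± 0.12, edgeR adjusted p = 0.0491), and so did NR1H3, which encodes LXR-alpha itself (-0.82 ± 0.17, edgeR adjusted p = 0.0011). The list is therefore split between its members, and its median log2 fold change was 0.17.

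Cholesterol synthesis showed no common direction: in the SREBP2 list 9 of 26 members rose and 9 fell. HMGCS1, which makes the HMG-CoA used in the pathway, had 185, 179 and 190.2 CPM with APOE siRNA, against 483, 442 and 401 CPM with control siRNA (-1.26 ± 0.09, edgeR adjusted p = 1.81e-08). INSIG1, a brake on SREBP processing, had 164, 172 and 185 CPM with APOE siRNA, against 356, 343 and 337 CPM with control siRNA (-0.99 ± 0.06, edgeR adjusted p = 3.89e-09). LSS, the cyclase that makes lanosterol, and PMVK, phosphomevalonate kinase, also fell (-0.59 ± 0.06 and -0.89 ± 0.13), while DHCR7, the last enzyme of the pathway, rose (0.51 ± 0.07). In fatty acid synthesis 13 of 27 members rose and 8 fell, or 5 without APOE siRNA replicate 2 and 4 without control siRNA replicate 1. Its most changed member was ACLY, which makes cytosolic acetyl-CoA from citrate: 773, 739 and 772 CPM with APOE siRNA, against 243, 238 and 249.9 CPM with control siRNA (1.64 ± 0.06, edgeR adjusted p = 1.76e-11). FASN and SCD rose by 0.32 each on the log2 scale. ACLY was also above the control level with the other targeting siRNAs, at 717 CPM with ATF3 siRNA and 725 CPM with CXCL14 siRNA.

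Genes of ceramides and other barrier lipids moved both ways. SPTLC1 and SPTLC2 encode the subunits of serine palmitoyltransferase, the enzyme that starts sphingolipid synthesis. SPTLC1 had 25.7, 21.7 and 25.2 CPM with APOE siRNA, against 81.4, 79.3 and 79 CPM with control siRNA (-1.72 ± 0.08, edgeR adjusted p = 1.3e-10), and SPTLC2 had 48.9, 53.9 and 47.9 CPM with APOE siRNA, against 86.1, 84.5 and 77.8 CPM with control siRNA (-0.72 ± 0.08, edgeR adjusted p = 1.47e-06). FA2H, which hydroxylates the fatty acid of ceramides, had 2, 2 and 3 counts with APOE siRNA and 16, 9 and 8 with control siRNA (-2.28 ± 0.62, edgeR adjusted p = 0.00665). Other genes of the pathway rose: ABCA12, the lipid transporter of lamellar granules (0.93 ± 0.11), the ceramide synthase CERS3 (0.43 ± 0.08) and the fatty acid elongase ELOVL4 (0.61 ± 0.10). In all, 9 of the 21 barrier lipid genes rose and 5 fell. SULT2B1, which makes cholesterol sulfate, was at 12.2 CPM with APOE siRNA and 3.85 CPM with control siRNA (1.66 ± 0.16), and STS, which removes that sulfate, fell (-1.25 ± 0.18, edgeR adjusted p = 3.51e-05). NCEH1 and SOAT1, which hydrolyse and form cholesterol esters, fell (-1.26 ± 0.09 and -0.56 ± 0.09).

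Lysosomal genes mostly rose, 23 of 33 higher (69.7%) and 5 lower (15.2%) and a median log2 fold change of 0.38. CTSD, the aspartic protease cathepsin D, had 413, 401 and 492 CPM with APOE siRNA, against 161, 162 and 174 CPM with control siRNA (1.39 ± 0.09, edgeR adjusted p = 9.01e-09). The proton pump accessory subunit ATP6AP1 (0.87 ± 0.08), the protective protein CTSA (0.68 ± 0.07), the protease CTSC (0.56 ± 0.06) and the regulator TFEB (0.56 ± 0.13) rose. The tetraspanin CD63, the cholesterol exporter NPC1 and the protease CTSL fell by 0.49, 0.28 and 0.25 on the log2 scale. In fatty acid oxidation 4 of 18 members rose (22.2%) and 5 fell (27.8%), near the shares over all genes, and 2 rose without APOE siRNA replicate 3 or without control siRNA replicate 3. ANGPTL4, the secreted inhibitor of lipoprotein lipase, had 4.11, 5.42 and 3.64 CPM with APOE siRNA, against 21.6, 19.8 and 22.3 CPM with control siRNA (-2.27 ± 0.14, edgeR adjusted p = 3.02e-09), and FABP5, the epidermal fatty acid carrier, had 105, 92.7 and 96.2 CPM with APOE siRNA, against 44.2, 48.6 and 50.4 CPM with control siRNA (1.04 ± 0.08, edgeR adjusted p = 5.76e-08).

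Genes of keratinocyte differentiation mostly rose. Of 27 spinous and early differentiation genes, 23 rose (85.2%) and 0 fell, with a median log2 fold change of 0.89, and 15 of them were higher than in all 3 other groups, which 6.82% of all genes were. KRTDAP, a secreted protein of differentiating keratinocytes, had 15.6, 11.5 and 12.4 CPM with APOE siRNA, against 0.907, 0.851 and 0.186 CPM with control siRNA (4.32 ± 0.27, edgeR adjusted p = 3.79e-09). SBSN, suprabasin, had 13.6, 9.96 and 11.6 CPM with APOE siRNA, against 0.967, 1.03 and 0.868 CPM with control siRNA (3.61 ± 0.21, edgeR adjusted p = 1.96e-09). NOTCH3, a receptor of the pathway that commits basal cells to differentiate, had 297, 287 and 272 CPM with APOE siRNA, against 69.8, 74.7 and 85.2 CPM with control siRNA (1.90 ± 0.12, edgeR adjusted p = 6.46e-09). In each of these genes the lowest APOE siRNA library stood more than 3 times above the highest control library. With ATF3 siRNA these genes were also above their control level, at means of 4.27, 5.55 and 202 CPM, against 0.648, 0.956 and 76.6 CPM with control siRNA.

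KRT1, DSG1 and CALML5 were close to absent in control cells. KRT1, the first keratin of the suprabasal layers, had 87, 24 and 19 counts with APOE siRNA and 1, 0 and 0 with control siRNA, a ratio of 121 with a 95% counting interval of 21.3 to 4810. Its partner KRT10 had 43.4, 40.0 and 40.8 CPM with APOE siRNA, against 24, 27.7 and 29.3 CPM with control siRNA (0.62 ± 0.11, edgeR adjusted p = 0.000294). DSG1, a desmosomal cadherin of suprabasal layers, had 26, 14 and 17 counts with APOE siRNA and 3, 4 and 3 with control siRNA, and CALML5, a calmodulin-like protein of differentiating epidermis, had 29, 15 and 35 counts with APOE siRNA and 3, 1 and 5 with control siRNA. OVOL1, GRHL1 and GRHL3, transcription factors of differentiation, rose (1.27 ± 0.14, 1.000 ± 0.13 and 0.95 ± 0.08). Desmosomal DSG3 had 731, 631 and 652 CPM with APOE siRNA, against 353, 373 and 363 CPM with control siRNA (0.89 ± 0.07, edgeR adjusted p = 3.58e-08).

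Cornified envelope genes followed, 18 of 29 higher (62.1%) and 2 lower (6.9%), with a median of 0.78. SPRR1B, a small proline-rich envelope precursor, had 161, 122 and 129 CPM with APOE siRNA, against 26.5, 25.5 and 35 CPM with control siRNA (2.25 ± 0.15, edgeR adjusted p = 9.42e-09), and its neighbour SPRR1A had 28.9, 23.7 and 29.7 CPM with APOE siRNA, against 4.17, 4.01 and 5.27 CPM with control siRNA (2.61 ± 0.16, edgeR adjusted p = 4.19e-09). TGM1, the transglutaminase that crosslinks the envelope, had 52.1, 47.2 and 44 CPM with APOE siRNA, against 9.85, 10.1 and 14.7 CPM with control siRNA (2.05 ± 0.19, edgeR adjusted p = 3.61e-07). IVL, involucrin, had 77.6, 62.7 and 64.8 CPM with APOE siRNA, against 21.6, 25.5 and 27.8 CPM with control siRNA (1.45 ± 0.11, edgeR adjusted p = 4.25e-08). FLG, filaggrin, remained low but rose, with 74, 65 and 49 counts with APOE siRNA and 14, 7 and 10 with control siRNA. The members that fell were PADI3 (-1.07 ± 0.28), a deiminase, and TMPRSS11E (-0.64 ± 0.22), a membrane protease, and 1 fell without APOE siRNA replicate 1 or control siRNA replicates 1 or 2. IVL and TGM1 were higher still with ATF3 siRNA, where they averaged 85.3 and 88.9 CPM.

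All 5 stress keratins, which keratinocytes switch on in wounds and hyperproliferative skin, rose. KRT16 had 901, 682 and 747 CPM with APOE siRNA, against 147, 177 and 198 CPM with control siRNA (2.16 ± 0.13, edgeR adjusted p = 1.91e-09). KRT17 had 10967, 10266 and 11461 CPM with APOE siRNA, against 4952, 5226 and 5744 CPM with control siRNA (1.04 ± 0.08, edgeR adjusted p = 2.01e-08). KRT6A, KRT6B and KRT6C rose by 0.55, 0.59 and 1.34 on the log2 scale, and as near-identical copies they may share reads, as may KRT16 and KRT17, the SPRR genes, and below the AKR1C genes, IFITM2 and MT1X. Antimicrobial proteins and alarmins rose in 8 of 12 members (66.7%) with 1 lower. PI3, the elastase inhibitor elafin, had 92.9, 83.3 and 89.1 CPM with APOE siRNA, against 11.7, 12.2 and 12 CPM with control siRNA (2.88 ± 0.10, edgeR adjusted p = 1.58e-11), and SLPI, a related inhibitor, had 94, 82.3 and 85.7 CPM with APOE siRNA, against 30.3, 30.8 and 31.4 CPM with control siRNA (edgeR adjusted p = 3.22e-10). S100A8 and S100A9, the subunits of calprotectin, rose (1.68 ± 0.13 and 0.76 ± 0.09), and RNASE7 fell (-0.38 ± 0.08). With ATF3 siRNA KRT16, PI3 and S100A8 averaged 542, 44.8 and 70.1 CPM, against 174, 12 and 19.7 CPM with control siRNA.

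The basal programme moved both ways, with 6 of 20 members higher and 8 lower. Among the rises, KRT15, a basal keratin, had 339, 313 and 304 CPM with APOE siRNA, against 153, 131 and 135 CPM with control siRNA (1.19 ± 0.07, edgeR adjusted p = 3.08e-09), and KRT5 and KRT14 rose by 0.61 and 0.53 on the log2 scale. The adhesion genes were found on both sides: BCAM, a laminin-binding adhesion molecule, had 38.2, 28.9 and 36.9 CPM with APOE siRNA, against 11.5, 13.9 and 16.7 CPM with control siRNA (1.31 ± 0.13, edgeR adjusted p = 6.17e-07), the collagen receptor subunit ITGA2 had 176, 182 and 153 CPM with APOE siRNA, against 494, 409 and 362 CPM with control siRNA (-1.31 ± 0.12, edgeR adjusted p = 1.81e-07), and COL17A1, a hemidesmosome collagen, had 2425, 2492 and 2545 CPM with APOE siRNA, against 3704, 3710.2 and 3760.5 CPM with control siRNA (-0.58 ± 0.06, edgeR adjusted p = 6.65e-07). The laminin genes LAMA3 and LAMB3 fell by 0.36 and 0.26 on the log2 scale. In the Notch pathway 8 of 21 members rose and 7 fell, NOTCH3, NRARP (1.76 ± 0.35), LFNG (1.54 ± 0.25) and HES2 (0.99 ± 0.07) among the first, and NOTCH2 (-1.17 ± 0.11), ADAM10 (-0.76 ± 0.09) and NUMB (-0.59 ± 0.06) among the second.

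**Figure D2:**
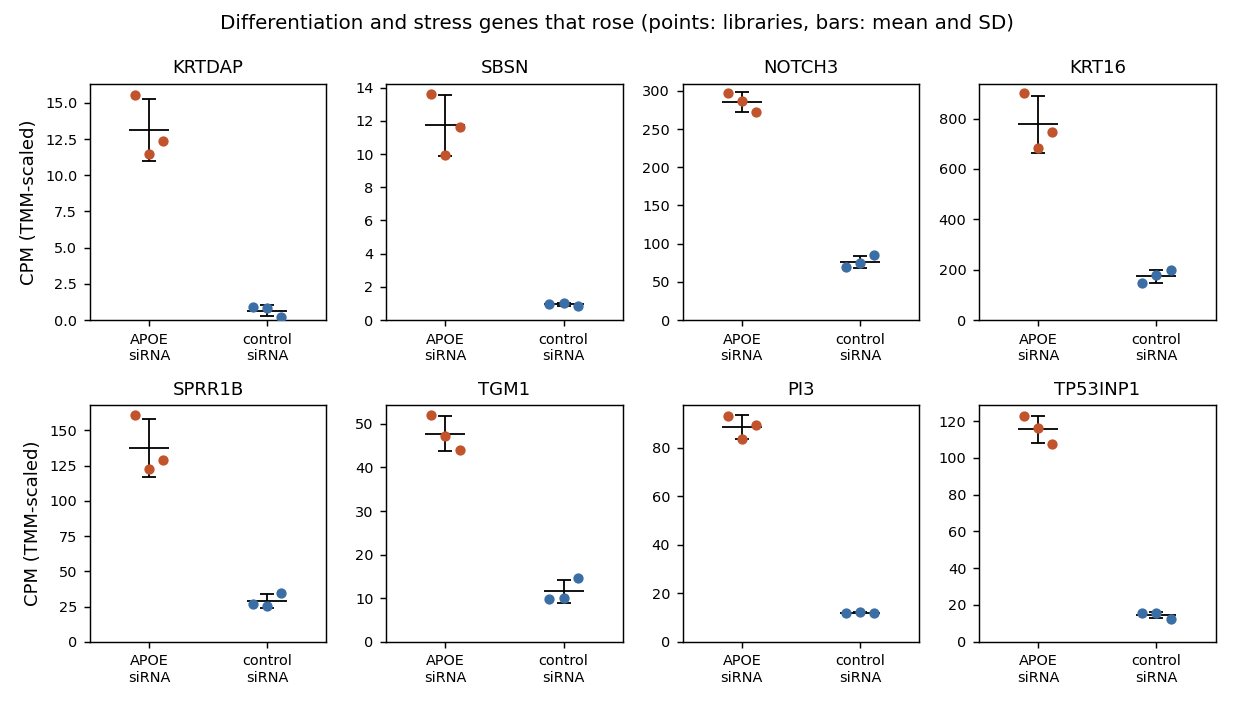
TMM-scaled CPM of 8 genes that rose, with a point for each library and a bar at the mean with 1 SD (n = 3 per group), APOE siRNA at left and control siRNA at right. In every panel the 3 APOE siRNA libraries lie above the 3 control siRNA libraries, as for PI3 at 83.3 to 92.9 CPM with APOE siRNA against 11.7 to 12.2 CPM with control siRNA.

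Genes of the p53 pathway rose without exception among those called: 23 of 32 were higher (71.9%) and 0 lower, with a median log2 fold change of 0.56. Of the 32, 9 were higher than in all 3 other groups, which 6.82% of all genes were. TP53INP1, a p53-induced regulator of death and autophagy, had 123, 116 and 108 CPM with APOE siRNA, against 15.7, 15.5 and 12.6 CPM with control siRNA (2.98 ± 0.10, edgeR adjusted p = 1.58e-11). CDKN1A, the cell cycle inhibitor p21, had 1705, 1699 and 1806 CPM with APOE siRNA, against 925, 946 and 1013 CPM with control siRNA (0.85 ± 0.06, edgeR adjusted p = 2.11e-08). CCNG1 (1.02 ± 0.08), RRM2B (1.02 ± 0.07), SESN1 (1.26 ± 0.11), FDXR (1.06 ± 0.08) and MDM2 (0.34 ± 0.09), all transcribed by p53, also rose. CDKN1A and TP53INP1 were no higher than with CXCL14 siRNA, where they averaged 1981 and 132 CPM.

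The targets of ATF4 and the integrated stress response rose in 27 of 44 members (61.4%) and fell in 6 (13.6%). Of the 44, 5 were higher and 5 lower than in all 3 other groups, against 6.82% and 9.04% of all genes. NUPR1, a stress-induced transcriptional regulator, had 73.4, 74.4 and 73.2 CPM with APOE siRNA, against 8.7, 10.7 and 11.8 CPM with control siRNA (2.82 ± 0.10, edgeR adjusted p = 1.76e-11). It averaged 24.3 CPM with ATF3 siRNA and was higher still with CXCL14 siRNA, at a mean of 89.0 CPM. SESN2, an inhibitor of mTORC1 that p53 also induces, had 299, 308 and 329 CPM with APOE siRNA, against 124, 125 and 129.7 CPM with control siRNA (1.30 ± 0.08, edgeR adjusted p = 3.05e-09). The effectors DDIT3, CHAC1 and TRIB3 rose (1.24 ± 0.13, 0.94 ± 0.08 and 0.72 ± 0.08), as did the serine synthesis enzymes PHGDH and PSPH (0.86 ± 0.07 and 0.95 ± 0.07). Against this, PPP1R15A, the phosphatase subunit that ends the response, was lower (-0.996 ± 0.09, edgeR adjusted p = 1.33e-07). In the unfolded protein response of the endoplasmic reticulum 2 of 24 members rose (8.33%) and 9 fell (37.5%). SEC24D, a coat protein of vesicles that leave the reticulum, had 30.0, 31.5 and 31.7 CPM with APOE siRNA, against 79.4, 70.7 and 77.1 CPM with control siRNA (-1.29 ± 0.07, edgeR adjusted p = 9.32e-10), and HERPUD1 had 34.6, 33 and 36.9 CPM with APOE siRNA, against 74.2, 66.3 and 63.2 CPM with control siRNA (-0.97 ± 0.09, edgeR adjusted p = 2.18e-07).

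NRF2 antioxidant genes rose in 19 of 27 members (70.4%), 14 of them above all 3 other groups. AKR1C3 and AKR1C1, aldo-keto reductases, had the smallest p of the list: AKR1C3 had 42.5, 45.4 and 42 CPM with APOE siRNA, against 12.5, 11.2 and 11.9 CPM with control siRNA (1.87 ± 0.08, edgeR adjusted p = 1.56e-10), and AKR1C1 had 106, 113 and 125 CPM with APOE siRNA, against 37.6, 28.6 and 26.6 CPM with control siRNA (1.89 ± 0.13, edgeR adjusted p = 1.36e-08). The ferritin genes FTL and FTH1 rose by 1.07 and 1.06 on the log2 scale, and GCLC, which limits glutathione synthesis, rose (0.74 ± 0.06). ABCC3, an export pump, fell (-1.14 ± 0.13, edgeR adjusted p = 4.08e-06). Hypoxia and glycolysis genes rose in 24 of 36 members (66.7%) and fell in 4. The glucose carrier SLC2A1 (0.69 ± 0.07), the mTORC1 inhibitor DDIT4 (0.74 ± 0.06), the peptide hormone ADM (0.90 ± 0.07) and the demethylase KDM3A (0.72 ± 0.07) were higher. ANGPTL4, which is also in this list, and the glycolytic regulator PFKFB3 were lower (-2.27 ± 0.14 and -0.62 ± 0.07).

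Heat shock genes parted. HSPB1, the small chaperone HSP27, had 2159, 1956 and 2297 CPM with APOE siRNA, against 390.4, 480.2 and 594 CPM with control siRNA (2.13 ± 0.15, edgeR adjusted p = 1.48e-08), while the chaperones and cochaperones HSPA4, DNAJB1, CHORDC1 and HSP90AA1 fell (-0.90 ± 0.07, -0.65 ± 0.06, -1.02 ± 0.10 and -0.57 ± 0.08). In the whole list 3 of 20 members rose, or 5 without control siRNA replicate 3, and 7 fell. Of 16 glucocorticoid-responsive genes 6 rose and 3 fell, with the largest fall in ANGPTL4 (-2.27 ± 0.14). TSC22D3, which encodes the glucocorticoid-induced leucine zipper, had 207, 191 and 230.4 CPM with APOE siRNA, against 49, 51.3 and 53.9 CPM with control siRNA (2.03 ± 0.08, edgeR adjusted p = 6.67e-11), and ZBTB16, a transcriptional repressor, had 8.65, 6.95 and 7.46 CPM with APOE siRNA, against 0.484, 0.486 and 1.92 CPM with control siRNA (2.997 ± 0.32, edgeR adjusted p = 1.7e-06). The metallothionein MT1X (1.03 ± 0.09) and the zinc exporter SLC30A1 (0.79 ± 0.07) rose. Of 20 immediate early and AP-1 genes 12 rose (60.0%) and 2 fell, or 7 higher without APOE siRNA replicate 3. JUN (0.54 ± 0.08) and EGR1 (0.66 ± 0.11) were among those higher, and FOSL1 (-0.68 ± 0.08) and KLF6 (-0.62 ± 0.06) were those lower.

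The genes of the cytosolic ribosome rose almost as a block: 70 of 77 were higher (90.9%) and 0 lower. Their log2 fold changes were small, with a median of 0.42 and a range of -0.11 to 0.87. Of the 77, 9 were higher than in all 3 other groups, which 6.82% of all genes were. RPL13A had 2605, 2612 and 2669 CPM with APOE siRNA, against 1478, 1525 and 1524 CPM with control siRNA (0.80 ± 0.06, edgeR adjusted p = 1.17e-08), and RPS9 had 1106, 1052 and 1070.3 CPM with APOE siRNA, against 668, 731 and 727 CPM with control siRNA (0.60 ± 0.06, edgeR adjusted p = 6.46e-07). Ribosomal protein genes have many processed pseudogenes, so their counts depend on how shared reads were treated. Subunits of oxidative phosphorylation encoded in the nucleus rose in 37 of 75 members (49.3%) and fell in 3 (4.0%), with a median of 0.25. The complex I subunit NDUFB10 had 70.6, 74.6 and 78.4 CPM with APOE siRNA, against 44.9, 48.8 and 50.7 CPM with control siRNA (0.63 ± 0.07, edgeR adjusted p = 2.35e-06). Opposite to most of the list, ATP5MF, a membrane subunit of ATP synthase, had 14.4, 12.4 and 14.2 CPM with APOE siRNA, against 53.9, 51 and 49.9 CPM with control siRNA (-1.92 ± 0.09, edgeR adjusted p = 2e-10).

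Short genes lay slightly above long ones in these libraries. In 4 equal classes by annotated length, from short to long, the median log2 fold change was 0.14, 0.02, -0.01 and -0.09, and 11.9, 20.8, 25.8 and 31.4% of genes were called lower. Of the ribosomal genes 33 of 77 and of the nuclear respiratory chain genes 42 of 75 are in the shortest class, as are 11 of 12 antimicrobial, 17 of 29 cornified envelope and 13 of 13 mitochondrially encoded genes. The part of length in the changes of these groups was not tested. Scaling by library size alone moved the median of all genes by -0.06 on the log2 scale. Of 13 mitochondrially encoded genes 3 rose and 0 fell, a count that was 5 higher without APOE siRNA replicate 1, 7 higher without control siRNA replicate 1, and 1 higher and 1 lower without control siRNA replicate 3. In all, mitochondrial transcripts took 2.51 to 2.76% of counts with APOE siRNA against 2.16 to 2.66% with control siRNA.

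Cell cycle genes fell more often than they rose. Among DNA replication genes of the G1/S transition 20 of 43 were lower (46.5%) and 4 higher (9.3%, but 2 without APOE siRNA replicate 2 or control siRNA replicate 1, and 0 without APOE siRNA replicate 3), and among mitotic genes 21 of 43 were lower (48.8%) and 1 higher (2.33%). MCM6, a subunit of the replicative helicase, had 18.8, 17 and 21 CPM with APOE siRNA, against 68.8, 67.8 and 69 CPM with control siRNA (-1.86 ± 0.10, edgeR adjusted p = 1.41e-09). Of the other helicase subunits, MCM4 fell by 0.38, MCM5 by 0.49 and MCM2 by 0.22 on the log2 scale. RRM1, a ribonucleotide reductase subunit, had 60.8, 60.0 and 69.9 CPM with APOE siRNA, against 113, 108 and 107 CPM with control siRNA (-0.78 ± 0.07, edgeR adjusted p = 2.12e-07). HMMR, a spindle and hyaluronan-binding protein, had 7.54, 7.06 and 8.87 CPM with APOE siRNA, against 26.7, 28.4 and 26 CPM with control siRNA (-1.79 ± 0.15, edgeR adjusted p = 1.32e-07), and the kinetochore motor CENPE had 14, 14.1 and 11.7 CPM with APOE siRNA, against 48.2, 42.9 and 30.8 CPM with control siRNA (-1.61 ± 0.16, edgeR adjusted p = 8.15e-07). MKI67, the proliferation marker Ki-67, fell (-1.02 ± 0.14, edgeR adjusted p = 2e-05), and the mitotic kinase AURKA fell (-0.77 ± 0.08, edgeR adjusted p = 5.66e-07). PCNA, a replication clamp that p53 also induces, rose (0.24 ± 0.07, edgeR adjusted p = 0.00716). Of these lists 1 gene, MCM6, was below all 3 other groups. With CXCL14 siRNA AURKA and CENPE were lower still and averaged 28.2 and 4.93 CPM.

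Interferon-stimulated genes fell in 24 of 50 members (48.0%) and rose in 1, BST2 (2.0%, and in 3 without control siRNA replicate 3), with a median of -0.29. HERC6, an interferon-induced ubiquitin ligase, had 60.5, 56.1 and 61.1 CPM with APOE siRNA, against 157, 190.2 and 204 CPM with control siRNA (-1.63 ± 0.09, edgeR adjusted p = 8.96e-10). IFITM2, which blocks viral entry, had 12.7, 7.99 and 9.25 CPM with APOE siRNA, against 21.9, 39 and 47 CPM with control siRNA (-1.84 ± 0.24, edgeR adjusted p = 9.54e-06). DDX58, the RNA sensor RIG-I, had 95.2, 86.8 and 90.5 CPM with APOE siRNA, against 129, 161 and 176 CPM with control siRNA (-0.77 ± 0.11, edgeR adjusted p = 2.09e-05), and the chemokine CXCL11 had 3.59, 4.98 and 5.1 CPM with APOE siRNA, against 8.64, 18.3 and 16.4 CPM with control siRNA (-1.67 ± 0.24, edgeR adjusted p = 3.45e-05). Control siRNA replicate 1 was the lowest control library in these 4 genes, and without it 37 members were called lower. Of the list, 14 members were below all 3 other groups, as were 9.04% of all genes. In MHC class I presentation 4 of 20 members rose, B2M among them (0.38 ± 0.13), or 2 without APOE siRNA replicate 1 or 3 and 1 without control siRNA replicate 1. Another 7 fell, among them the immunoproteasome subunits PSMB9 and PSMB10 (-0.97 ± 0.14 and -0.93 ± 0.17) and the trimming peptidase ERAP1 (-0.75 ± 0.07).

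Cytokines and targets of NF-kB fell most often of all lists shown in the plot of gene lists, 19 of 32 lower (59.4%) and 4 higher (12.5%), with a median of -0.50. Without APOE siRNA replicate 1 the number lower was 11. Of the 32, 5 were below all 3 other groups, as were 9.04% of all genes. IL32, a proinflammatory cytokine, had 9.18, 7.28 and 8.36 CPM with APOE siRNA, against 28.7, 25.7 and 26.8 CPM with control siRNA (-1.71 ± 0.12, edgeR adjusted p = 9.6e-09). CSF3, the granulocyte growth factor, had 35.3, 50.4 and 46.8 CPM with APOE siRNA, against 136, 129 and 118 CPM with control siRNA (-1.53 ± 0.11, edgeR adjusted p = 2.87e-08), and CSF2, the granulocyte-macrophage factor, had 3, 6 and 3 counts with APOE siRNA and 29, 10 and 15 with control siRNA. PTGS2, the inducible cyclooxygenase, had 25.8, 26.2 and 29.9 CPM with APOE siRNA, against 56.2, 50.0 and 45.3 CPM with control siRNA (-0.89 ± 0.10, edgeR adjusted p = 2.22e-06). The subunits NFKB1 and NFKB2 and the feedback inhibitor TNFAIP3 fell (-0.82 ± 0.10, -0.61 ± 0.07 and -0.83 ± 0.10), as did the neutrophil chemokines CXCL1 and CXCL8 (-1.54 ± 0.18 and -0.71 ± 0.26). The members that rose were IL33, IL1RN, IL1A and IER3 (1.33 ± 0.28, 0.76 ± 0.13, 0.48 ± 0.09 and 0.19 ± 0.07), of which IL1RN is the natural antagonist of the interleukin 1 receptor. ACKR3, a scavenging chemokine receptor, had 58, 55 and 52 counts with APOE siRNA and 6, 1 and 6 with control siRNA (3.53 ± 0.41, edgeR adjusted p = 3.74e-06).

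Sensors of double-stranded RNA and components of RNA interference, which handle the transfected siRNA itself, rose in 3 of 23 members (13.0%) and fell in 7 (30.4%). TARBP2, the partner of Dicer, had 48.4, 50.6 and 52.4 CPM with APOE siRNA, against 32.3, 34.5 and 33.4 CPM with control siRNA (0.59 ± 0.08, edgeR adjusted p = 9.46e-06), AGO2, the slicer, rose (0.42 ± 0.16), and EIF2AK2, the kinase PKR, fell (-0.48 ± 0.09).

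**Figure D3:**
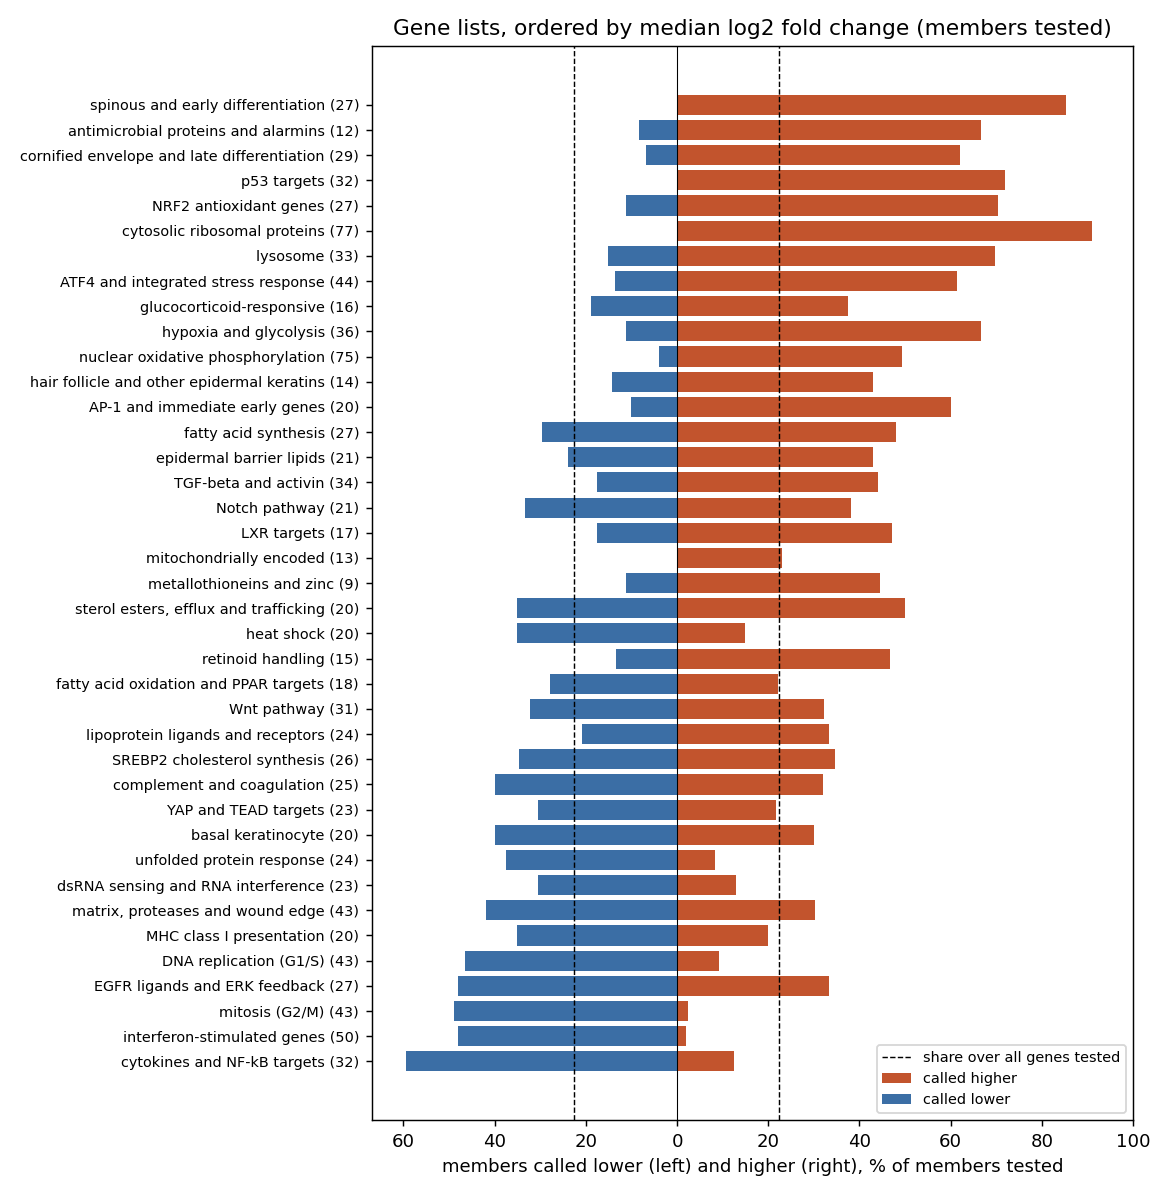
Share of each gene list called lower (left) and higher (right) with APOE siRNA against control siRNA, in % of members tested, with lists of 9 or more tested members ordered by their median log2 fold change and the number tested in brackets. Dashed lines mark the shares over all genes (22.3% higher and 22.5% lower). Spinous genes stand at the top with 85.2% higher and 0 lower, and cytokines and NF-kB targets at the bottom with 59.4% lower and 12.5% higher.

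In growth factor signalling, 13 of 27 genes of the EGFR ligand and ERK feedback list fell (48.1%) and 9 rose (33.3%), or 5 without APOE siRNA replicate 2. ERBB2, a receptor kinase of the EGFR family, had 74.2, 73.7 and 73.5 CPM with APOE siRNA, against 144, 146 and 156 CPM with control siRNA (-1.01 ± 0.08, edgeR adjusted p = 4.31e-08), and its partner ERBB3 had 48.7, 44.6 and 39.8 CPM with APOE siRNA, against 28.7, 27.1 and 26.5 CPM with control siRNA (0.70 ± 0.08, edgeR adjusted p = 2.64e-06). The ligand TGFA (-0.55 ± 0.06) and the feedback genes SPRED1 (-0.87 ± 0.08) and PHLDA1 (-0.58 ± 0.07) fell. Wnt pathway genes rose and fell in 10 of 31 members each. The secreted inhibitor SFRP1 had 589, 615 and 661 CPM with APOE siRNA, against 215, 232 and 258 CPM with control siRNA (1.40 ± 0.08, edgeR adjusted p = 1.48e-09), and another, DKK1, had 34.6, 34.5 and 34.5 CPM with APOE siRNA, against 72.4, 71.5 and 65.1 CPM with control siRNA (-1.01 ± 0.09, edgeR adjusted p = 2.23e-07). The ligands WNT7A and WNT7B fell (-0.92 ± 0.07 and -1.64 ± 0.14). AXIN2, a feedback target of the pathway, had 44, 31 and 20 counts with APOE siRNA and 6, 3 and 3 with control siRNA, and the ligand WNT10A had 115, 54 and 74 counts with APOE siRNA and 9, 12 and 10 with control siRNA.

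In TGF-beta and activin signalling 15 of 34 members rose (44.1%) and 6 fell (17.6%). TGFBI, a matrix protein named for its induction by TGF-beta, had 1673, 1669 and 1834 CPM with APOE siRNA, against 632, 611 and 627 CPM with control siRNA (1.47 ± 0.07, edgeR adjusted p = 1.56e-10). ID1 and ID3, targets of BMP signalling, rose (0.75 ± 0.13 and 1.39 ± 0.08), and the receptor ACVR1 fell (-1.24 ± 0.12). Matrix and wound edge genes went both ways, 13 of 43 higher and 18 lower (41.9%). COL7A1, the collagen of anchoring fibrils, had 1876, 1958 and 1608 CPM with APOE siRNA, against 738, 896 and 875 CPM with control siRNA (1.12 ± 0.09, edgeR adjusted p = 5.66e-08). HAS3, a hyaluronan synthase, had 155, 169 and 162 CPM with APOE siRNA, against 332, 333 and 326 CPM with control siRNA (-1.03 ± 0.06, edgeR adjusted p = 1.96e-09). The matrix proteases MMP10 and MMP3 moved in opposite directions, MMP10 with 6, 2 and 5 counts with APOE siRNA and 47, 38 and 23 with control siRNA and MMP3 with 20, 12 and 11 counts with APOE siRNA and 3, 1 and 0 with control siRNA. NT5E, the ecto-enzyme that makes adenosine, led the falls of the YAP and TEAD targets (-1.35 ± 0.06, edgeR adjusted p = 2e-10), of which 5 of 23 rose and 7 fell.

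Genes of coagulation and plasminogen activation fell in part. TFPI2, a Kunitz-type protease inhibitor, had 20.9, 19.9 and 22.8 CPM with APOE siRNA, against 163, 150.4 and 158 CPM with control siRNA (-2.89 ± 0.09, edgeR adjusted p = 1.58e-11). It was lower still with CXCL14 siRNA, at a mean of 15.8 CPM, and averaged 87.7 CPM with ATF3 siRNA. THBS1, thrombospondin 1, had 769, 868 and 895 CPM with APOE siRNA, against 2118, 2436 and 2559 CPM with control siRNA (-1.49 ± 0.08, edgeR adjusted p = 1.5e-09). The plasminogen activators PLAT and PLAU and the receptor PLAUR fell (-1.44 ± 0.09, -0.90 ± 0.10 and -0.73 ± 0.07). Against this, the coagulation receptor F2R rose (0.79 ± 0.06, edgeR adjusted p = 3.42e-08), as did the complement genes C1S, C1R and C3 (1.65 ± 0.20, 0.98 ± 0.20 and 0.72 ± 0.08). Over the list of complement and coagulation 8 of 25 rose and 10 fell. In retinoid handling 7 of 15 rose and 2 fell, CRABP2 at 11 CPM with APOE siRNA and 3.61 CPM with control siRNA (1.61 ± 0.15) and ALDH1A3, which makes retinoic acid, lower (-0.74 ± 0.10).

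**Figure D4:**
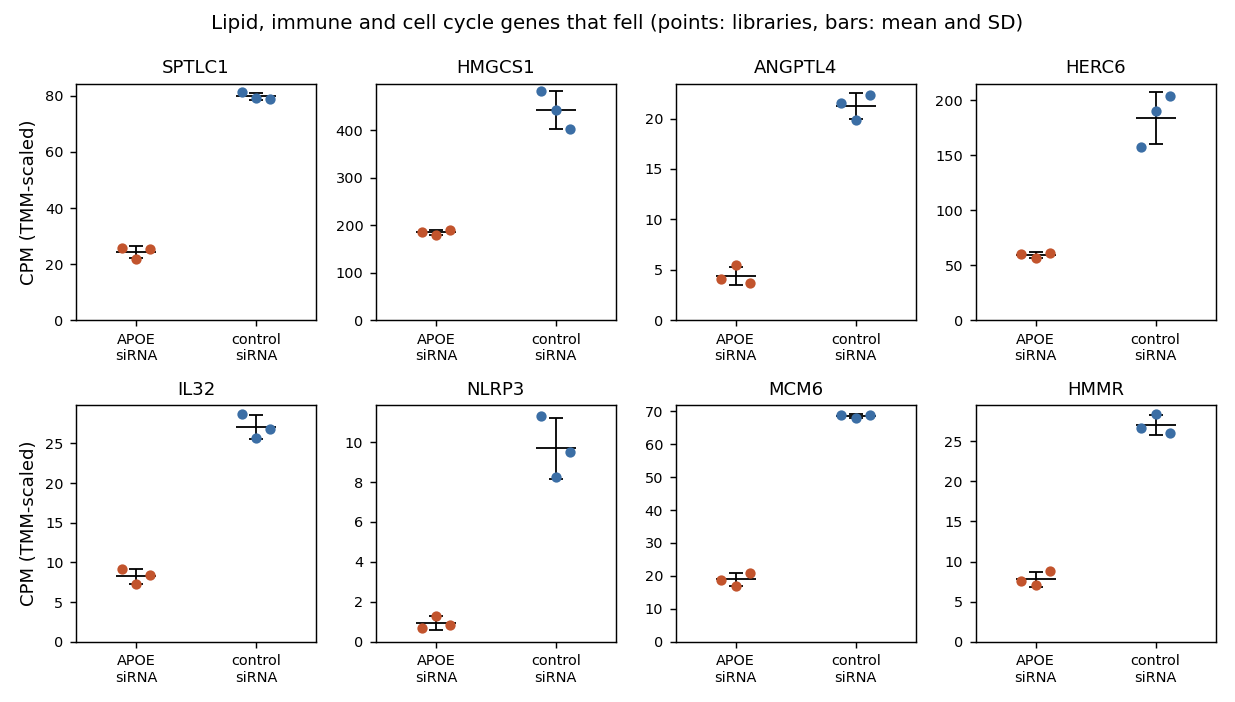
TMM-scaled CPM of 8 genes that fell, with a point for each library and a bar at the mean with 1 SD (n = 3 per group), APOE siRNA at left and control siRNA at right. The groups do not overlap in any panel: SPTLC1 lies at 21.7 to 25.7 CPM with APOE siRNA against 79 to 81.4 CPM with control siRNA.

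By size, the 15 largest falls among protein-coding genes with at least 5 CPM in 1 group included receptors, regulators of GTPases and immune genes. ADRA1D, an adrenergic receptor, had 0.211, 0.548 and 0.0638 CPM with APOE siRNA, against 5.68, 6.2 and 5.95 CPM with control siRNA (-4.36 ± 0.38, edgeR adjusted p = 1.49e-07). ARHGAP25, a Rac-specific GTPase activator, had 0.475, 0.548 and 0.638 CPM with APOE siRNA, against 5.5, 7.6 and 7.31 CPM with control siRNA (-3.61 ± 0.26, edgeR adjusted p = 1.81e-08). NLRP3, the inflammasome sensor, had 0.686, 1.31 and 0.829 CPM with APOE siRNA, against 11.3, 8.27 and 9.48 CPM with control siRNA (-3.35 ± 0.24, edgeR adjusted p = 2.14e-08). These 3 genes averaged 4.61, 8.13 and 9.74% of their control level. They averaged 4.47, 5.11 and 5.29 CPM with ATF3 siRNA and 2.57, 1.66 and 1.51 CPM with CXCL14 siRNA. For NLRP3 the difference between APOE siRNA and CXCL14 siRNA did not pass (edgeR adjusted p = 0.0613). ARHGDIB, a GDP dissociation inhibitor, had 6.33, 6.46 and 6.89 CPM with APOE siRNA, against 53.4, 40.9 and 46.5 CPM with control siRNA (-2.84 ± 0.12, edgeR adjusted p = 5.35e-11), and BRCC3, a deubiquitinase that acts on NLRP3 among other substrates, had 4.33, 3.01 and 2.62 CPM with APOE siRNA, against 20.2, 22.7 and 17.2 CPM with control siRNA (-2.58 ± 0.18, edgeR adjusted p = 1.37e-08). The others were GMPR, TMEM156, MRGPRX3, SLIT2, TFPI2, LMO2, ADTRP, LGALS9, SDR16C5 and RINL, between -3.08 and -2.64 on the log2 scale.

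Among the 15 largest rises, beside the genes given above, CDH16, a kidney-type cadherin, had 6.86, 4.6 and 6.7 CPM with APOE siRNA, against 0.665, 0.669 and 0.682 CPM with control siRNA (3.16 ± 0.30, edgeR adjusted p = 4.43e-07). EPHA4, an ephrin receptor, had 6.17, 5.97 and 4.59 CPM with APOE siRNA, against 0.967, 0.912 and 0.992 CPM with control siRNA (2.54 ± 0.27, edgeR adjusted p = 1.35e-06). CPA4, a carboxypeptidase, had 26.2, 19.9 and 19.7 CPM with APOE siRNA, against 2.48, 4.13 and 5.95 CPM with control siRNA, and was far higher with CXCL14 siRNA, at a mean of 241 CPM. KREMEN2, a receptor for the Wnt inhibitor DKK1, had 15.2, 20.6 and 24.3 CPM with APOE siRNA, against 3.99, 3.71 and 4.28 CPM with control siRNA (2.32 ± 0.25, edgeR adjusted p = 1.33e-06). ADAMTSL4, a fibrillin-binding matrix protein, and GAMT, which makes creatine, also rose (2.37 ± 0.18 and 2.31 ± 0.29).

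The APOE siRNA libraries also differed from those with other targeting siRNAs. Compared with ATF3 siRNA 5705 genes passed (38.2%), 2678 higher (17.9%) and 3027 lower (20.3%). Compared with CXCL14 siRNA 8282 passed (55.5%), 4308 higher (28.9%) and 3974 lower (26.6%). These comparisons share the APOE siRNA libraries. Genes that differed in the same direction from all 3 other groups numbered 1017 higher (6.82%) and 1349 lower (9.04%). DCBLD1, a transmembrane protein, was the most separate rise: it had 235, 244 and 251 CPM with APOE siRNA, against 59.5, 62 and 60.8 CPM with control siRNA, and averaged 57.5 CPM with ATF3 siRNA and 35.3 CPM with CXCL14 siRNA. PIK3R1, the regulatory subunit of PI3 kinase, had 296, 263 and 244 CPM with APOE siRNA, against 97.3, 99.7 and 92 CPM with control siRNA (1.47 ± 0.10, edgeR adjusted p = 9.72e-09). AKR1C3, TGFBI, VAV3 (1.62 ± 0.09), HOXA9 (0.97 ± 0.07), LRP4 (1.16 ± 0.08) and the decapping enzyme DCP2 (1.38 ± 0.10) complete the 8 with the smallest p.

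Of the 8 most separate falls, DAZAP2, an adaptor protein, had 53, 46.9 and 51 CPM with APOE siRNA, against 153, 141 and 141 CPM with control siRNA (-1.53 ± 0.07, edgeR adjusted p = 9.78e-11). PITPNB, a phosphatidylinositol carrier, had 28.7, 30.8 and 27.6 CPM with APOE siRNA, against 110.3, 105 and 101 CPM with control siRNA (-1.86 ± 0.07, edgeR adjusted p = 1.76e-11). MTMR2, a phosphoinositide phosphatase, had 19, 19.7 and 19.9 CPM with APOE siRNA, against 74.6, 71.6 and 68.4 CPM with control siRNA (-1.87 ± 0.07, edgeR adjusted p = 3.22e-11). TARS, the threonyl-tRNA synthetase, had 106, 99.4 and 110.4 CPM with APOE siRNA, against 264, 257 and 248 CPM with control siRNA (-1.28 ± 0.06, edgeR adjusted p = 3.2e-10). MARCH4, a membrane ubiquitin ligase, and TRAM1, a protein of the translocon, fell as well (-2.32 ± 0.08 and -1.36 ± 0.07), together with SPTLC1 and ATP5MF. TARS averaged 299 CPM with ATF3 siRNA and 291 CPM with CXCL14 siRNA, SPTLC1 78.5 and 99.6 CPM, and DAZAP2 156 and 221 CPM, all at least close to the control level.

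A short sequence was more frequent among genes at least 2-fold lower and below all 3 other groups than among all genes. An siRNA is loaded into Argonaute and cuts the transcript it matches in full, and it can also lower other transcripts whose 3′ UTR pairs with the seed, bases 2 to 8 of the loaded strand, as a miRNA does. The longest annotated 3′ UTR (GENCODE 29) of 12619 tested genes was therefore read for all 16384 heptamers, on the strand of the transcript. The heptamer with the largest excess in genes at least 2-fold lower with APOE siRNA and lower than in all 3 groups was GAGGAAC. It occurred in 123 of those 346 genes (35.5%), in 8 of the 193 genes at least 2-fold higher and above all 3 groups (4.15%), and in 1220 of the 12619 genes (9.67%). Among all genes that fell, of any size of change and counted by name, 555 hold it and 2621 do not. The next heptamer, AGGAACA, overlaps it (34.4% against 14.7% of all genes), and the first that shares no run of 5 bases with it, TCTTTCC, was in 35.3% against 22.6%. The heptamer was picked on these same differences, so its share among the falls is a description and carries no test.

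The APOE transcript holds GAGGAAC once, in the coding sequence in exon 4 (transcript ENST00000252486.8, 1208 bases, first base at position 400). It is shown with at least 1 3′ UTR site of each of the genes named above whose fall was among the 15 largest or the 8 most separate, each from the GENCODE 29 transcript, 5′ to 3′, with the heptamer in capitals.
APOE coding sequence: ctacaaatcggaactgGAGGAACaactgac
ADRA1D: gacatccctGAGGAACtgggc
ADRA1D second site: tgccaactgGAGGAACccagt
TMEM156: tttaattttGAGGAACcaaaa
ADTRP: gaggtggtgGAGGAACatagc
BRCC3: gtattggcaGAGGAACagaca
MTMR2: cactgtgcaGAGGAACatcag
ATP5MF: cccctccgtGAGGAACacaat
TARS: atggaaaagGAGGAACagcgt

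In hg38 these stretches lie at chr19:44908569-44908598, plus strand (APOE), chr20:4221375-4221395, minus strand, and chr20:4221036-4221056, minus strand (ADRA1D), chr4:38967304-38967324, minus strand (TMEM156), chr6:11714376-11714396, minus strand (the first of the sites in ADTRP), chrX:155121347-155121367, plus strand (BRCC3), chr11:95834916-95834936, minus strand (MTMR2), chr7:99458261-99458281, minus strand (ATP5MF) and chr5:33467734-33467754, plus strand (TARS). ADTRP has 2 sites and MTMR2 has 3 in the transcript, of which 1 each is shown. The flanking bases differ from gene to gene, and the capitals are what they share. Of the 15 largest falls 4 hold the heptamer, and of the 8 most separate falls 3 do. Of the 8 most separate rises 0 do, and of the 14 largest rises with a 3′ UTR 1 does, CXCL14. No mature human miRNA in the RefSeq table (0 of 2545) has the seed GUUCCUC that would pair with it. The siRNA sequence is not among the sources used here, so whether it carries this seed was not tested.

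The medians by number of sites come from the differences by which the heptamer was chosen, so they are in part fixed by that choice and are given as a description with no test. Over all genes with a 3′ UTR, whatever their call, the median log2 fold change of APOE siRNA over control siRNA was 0.02 in 11399 genes with 0 sites, -0.21 in 1083 genes with 1 site and -0.37 in 137 genes with 2 or more. The medians of the same genes for APOE siRNA over ATF3 siRNA were 0.01, -0.18 and -0.28, and for APOE siRNA over CXCL14 siRNA 0.03, -0.21 and -0.22. Comparisons without the APOE siRNA libraries gave 0.01, -0.03 and -0.04 for ATF3 siRNA over control siRNA, and 0.00, 0.02 and -0.12 for CXCL14 siRNA over control siRNA. For the reverse complement GTTCCTC, read on the same strand, the medians of APOE siRNA over control siRNA were -0.00, -0.01 and -0.10. Of genes with 1 site 44.5% were called lower and 13.1% higher, against 23.0% lower and 25.0% higher of genes with 0 sites.

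Genes with sites have longer 3′ UTRs, a median of 2820 bases with 1 site and 1235 bases with 0. In 3 equal classes of 3′ UTR length, among the shortest UTRs the median was -0.30 with a site and 0.08 without, in the middle class -0.26 and 0.00, and among the longest -0.20 and -0.04. The part of UTR length in these medians was not tested. By the base that follows, the median of genes with 1 site was -0.26 before A (GAGGAACA, 404 genes), -0.21 before C and before T, and -0.01 before G (GAGGAACG, 79 genes). By the base that precedes, it was -0.30 after A, -0.28 after C (58 genes), -0.20 after T and -0.16 after G. Leaving out every gene with the heptamer left 3170 of 3327 genes higher and 2798 of 3354 lower, and 983 of 1017 and 1024 of 1349 apart from all 3 groups.

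**Figure D5:**
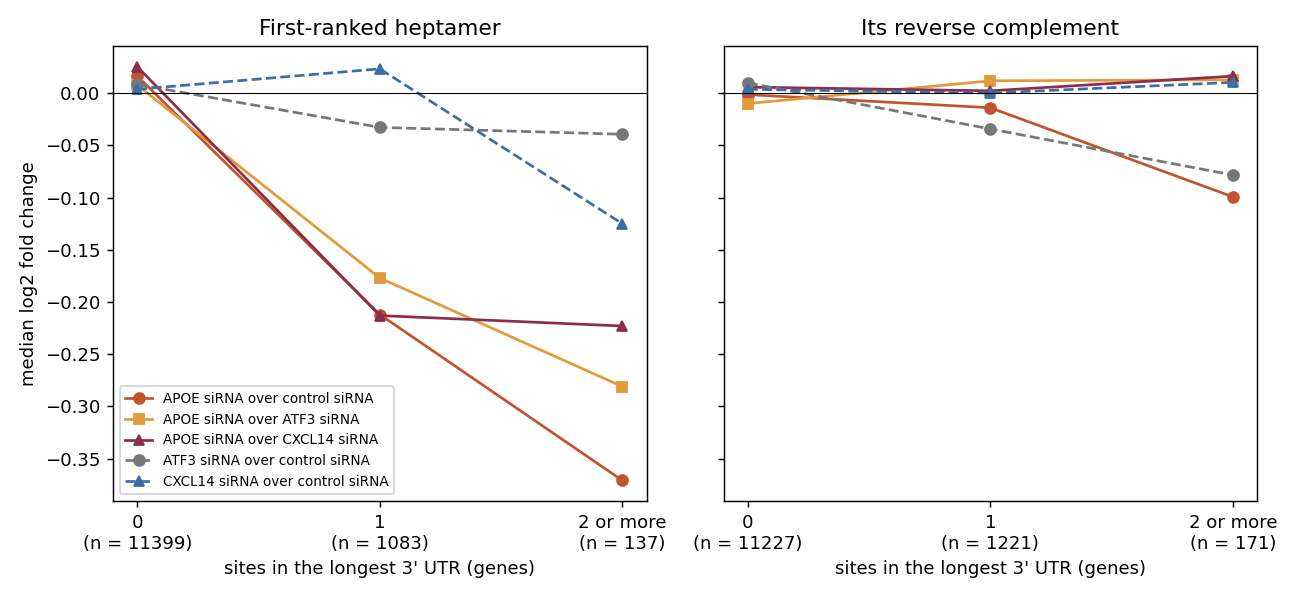
Median log2 fold change (upward) of genes with 0, 1 and 2 or more sites of the first-ranked heptamer (left) and of its reverse complement (right) in the longest 3′ UTR, for 3 comparisons that hold the APOE siRNA libraries (solid lines) and 2 that do not (dashed lines). The solid lines at left lie at -0.37, -0.28 and -0.22 at 2 or more sites, against -0.04 and -0.12 for the dashed lines. The heptamer was chosen on the differences that the solid lines summarise.

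Of the 264 list members that fell, 230 have no site. Over all genes with a 3′ UTR, counted by name, 555 that fell have a site and 2621 that fell have none, while 9.66% of all these genes have a site. Among the genes given above, ABCA1, NCEH1, INSIG1, LSS, PMVK, SPTLC2, PADI3, HERC6, EIF2AK2, HERPUD1, HSPA4, KLF6, MCM6, ERBB2, SPRED1, WNT7B, ACVR1, HAS3 and THBS1 have one and fell. Not all of these falls were particular to APOE siRNA. NCEH1 averaged 21.4 CPM with APOE siRNA, 24.9 with ATF3 siRNA, 20.4 with CXCL14 siRNA and 51.2 with control siRNA. For INSIG1 the means were 174, 154, 327 and 345 CPM in the same order. Others, such as LSS, PMVK, SPTLC2, HERC6, EIF2AK2, HERPUD1, KLF6 and THBS1, were below all 3 other groups. Of the 19 NF-kB and cytokine genes that fell 1 has a site, as has 1 of 20 replication genes and 1 of 21 mitotic genes. For interferon-stimulated genes it is 4 of 24. Called or not, 3.12, 9.3, 4.65 and 8% of the members of these lists with a 3′ UTR hold a site. In the spinous list 1 of 27 members has a site and 0 of those called. Of the TGF-beta and activin genes, 4 of the 6 that fell have a site, and 2 fell among the members without. In the SREBP2 list 3 of the 9 that fell have a site.

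Markers of other cell types were low, apart from some of the fibroblast and simple epithelium markers. Of 12 fibroblast markers 5 passed the filter on low counts and all 5 rose, COL1A1 with 87.1, 73.4 and 80.6 CPM with APOE siRNA, against 25, 27.5 and 34 CPM with control siRNA (1.48 ± 0.12, edgeR adjusted p = 5.53e-08). The summed fibroblast markers were at 152 to 167 CPM with APOE siRNA against 74.0 to 76.8 CPM with control siRNA, and COL3A1 and POSTN, which fibroblasts express, had 0 counts in all 6 libraries. The part of other cells in the changes of matrix genes was not tested. Of 14 immune markers 8 had 0 counts in all 6 libraries, PTPRC, the leukocyte antigen CD45, included, and CD14 alone was tested (1.37 ± 0.23, edgeR adjusted p = 0.000145), in a summed level of 6.17 to 6.64 CPM with APOE siRNA against 2.36 to 3.60 CPM with control siRNA. Melanocyte markers summed to 3.07 to 3.96 CPM with APOE siRNA against 3.45 to 4.20 CPM with control siRNA, with 0 of 3 tested members higher and 1 lower, a count that was 0 without APOE siRNA replicate 1 or 2 or control siRNA replicate 1 or 2. Endothelial markers summed to 1.34 to 2.03 CPM with APOE siRNA against 2.48 to 2.80 CPM with control siRNA, with 0 of 2 higher and 1 lower, or 0 lower under the stricter filter on low counts. Simple epithelium and sweat gland markers, mainly KRT8 and KRT18, summed to 763 to 894 CPM with APOE siRNA against 796 to 824 CPM with control siRNA, with 0 of 4 higher, or 1 without APOE siRNA replicate 1, and 3 lower.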

How the data were processed

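RNA from N/TERT-2G keratinocytes transfected with siRNA against APOE, ATF3 or CXCL14 or with a negative control siRNA was sequenced in 12 libraries, 3 per group. The authors deposited raw counts per gene for 58735 genes, made with HISAT2 2.0.5 and featureCounts 1.5.0-p3 on build hg38, per the submitters' processing notes. The annotation, the strand setting and the treatment of reads with several matches are not given in the sources used here. Every gene ID, with its coordinates, matched GENCODE 29, from which 3′ UTRs, overlaps and sequences were read. The authors also deposited FPKM values, per the file headers, which were checked against the counts and used in alternatives on the scale of log2(FPKM + 1) and log2(FPKM + 0.1) with limma. No column was left without a sample (0 unmapped).

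Counts were filtered with filterByExpr (14920 genes, 99.9% of counts), scaled by TMM and fitted with the quasi-likelihood test of edgeR 4.0.16 (R 4.3.3) over all 12 libraries with group as the only term. Adjustment was by Benjamini and Hochberg over all genes tested, and genes were called under 0.05. Ratios of summed low counts carry exact 95% intervals of the counting error, since no molecular identifiers are given. Data were simulated for all 12 libraries at their depths, with the mean level of each gene over the 12 (14920 genes). In the APOE siRNA libraries 67, 67 and 66 genes were changed by 0.5, 1 and 2 on the log2 scale. These genes had a mean of at least 1 CPM, and 58.2, 88.1 and 100% of them were called, with 6 false calls. Far fewer genes were changed there than passed in the data.

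The comparison, the 46 gene lists and the tests were chosen with earlier results of these data known. Genes named by rule were the 3 targeted genes, the 15 largest rises and 15 largest falls among called protein-coding genes with at least 5 CPM in 1 group and groups that did not overlap, up to 5 called members of each list with the smallest p, and in each direction the 8 genes most separate from all 3 other groups. Alternatives were other scalings, filters and tests (DESeq2 1.42.0, limma-voom with limma 3.58.1), the 6 libraries of the 2 groups alone, a replicate block, FPKM and each library left out. Heptamers were counted on the transcript strand of the longest annotated 3′ UTR per gene, and the scan, like the alternative without genes that hold the first heptamer, was chosen after seeing the data. The same-numbered APOE siRNA and control siRNA libraries were checked for pairing. Results for a few genes are not reported here.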

Additional observations from a re-analysis of the deposited data

How the results depend on the processing

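Across 216 alternative values, each count of called genes lay within 1.5 times the reported one, and APOE and CXCL14 kept their direction and call wherever they were tested (CXCL14 did not pass the stricter filter on low counts), while ATF3 was called under none of the alternatives, with log2 fold changes between -0.06 and 0.04 when 1 library was left out. Over single genes 3857 of 3881 alternative values kept the call and 24 lost it, 0 turned direction, and 222 of 229 named genes beside the targets were called under every alternative in which they were tested, 10 of the 229 being untested under at least 1. The 7 that were lost under at least 1 were ACAA2, DECR1, MT-CYB, MT-CO1, DCN, MITF and KRT7. Leaving out 1 library at a time gave 2789 to 3034 genes higher and 2924 to 3175 lower with APOE siRNA than with control siRNA, 402 to 438 list members higher and 227 to 259 lower, and 832 to 898 genes higher and 1162 to 1229 lower than in all 3 other groups. The log2 fold change of APOE then lay between -4.40 and -3.71 and that of CXCL14 between 3.74 and 4.43. A pseudocount shrinks the changes of genes at low levels by construction: with log2(FPKM + 1) APOE had -1.16 and CXCL14 1.99, and with log2(FPKM + 0.1) APOE had -3.06 and CXCL14 3.56. Library size alone as the scaling gave 2753 genes higher and 3909 lower. Among list counts 1592 of 1656 alternatives lay within 1.5 times. Of the rest, 44 were smaller and 20 larger, and 3 concerned counts above 10 (those of interferon-stimulated, NF-kB and immediate early genes given above).

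Same-numbered APOE siRNA and control siRNA libraries deviated together with correlations of 0.03, 0.03 and 0.15, and those of unlike number with -0.12 to 0.09. The replicate numbers were not taken to pair the libraries, a question that this check cannot decide with 3 libraries per group. The replicate block over 12 libraries gave 3738 genes higher and 3698 lower, and the block in the fit of the 2 groups 3481 higher and 3617 lower. APOE siRNA replicates 1 and 2 did not correlate best with their own number.

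Without the genes whose longest 3′ UTR holds GAGGAAC, an alternative chosen after seeing the data, 3170 genes were higher and 2798 lower, and 424 list members were higher and 230 lower, against 452 and 264 with all genes. These genes were dropped from the same calls with no new fit, so the counts could not rise. The counts without them are among the 216 alternative values above. Depth limits the genes of a few counts: APOE itself was measured by 10 counts over the 3 APOE siRNA libraries.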

Other observations

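Keratins of the hair follicle and of other stratified epithelia were not described above. Of 14 members tested 6 rose (42.9%) and 2 fell (14.3%), or 1 fell without control siRNA replicate 1, with a median log2 fold change of 0.25. KRT23, a keratin of stressed and simple epithelia, had 7.44, 4.71 and 6 CPM with APOE siRNA, against 1.45, 1.52 and 1.8 CPM with control siRNA (1.93 ± 0.22, edgeR adjusted p = 2.62e-06). KRT13 and KRT4 are the suprabasal pair of the mucosal epithelia. KRT13 had 11.2, 11 and 11.5 CPM with APOE siRNA, against 5.74, 6.26 and 6.51 CPM with control siRNA (0.86 ± 0.13, edgeR adjusted p = 3.68e-05), and KRT4 had 79, 48 and 24 counts with APOE siRNA and 8, 4 and 12 with control siRNA (2.51 ± 0.51, edgeR adjusted p = 0.0008). KRT34, a hair keratin, had 14.8, 19.3 and 17.3 CPM with APOE siRNA, against 12.2, 11.7 and 9.85 CPM with control siRNA (0.61 ± 0.13, edgeR adjusted p = 0.00129). KRT78 had 13, 16 and 14 counts with APOE siRNA and 3, 3 and 4 with control siRNA (1.97 ± 0.46, edgeR adjusted p = 0.00231).

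Among chemokines and their receptors outside the NF-kB list 7 of 21 members passed the filter on low counts, of which 2 rose (CXCL14 and ACKR3) and 2 fell. CXCL16, a membrane-bound chemokine, had 54.1, 55.6 and 60.7 CPM with APOE siRNA, against 62.1, 71.4 and 80.8 CPM with control siRNA (-0.33 ± 0.09, edgeR adjusted p = 0.00935), and CMTM3 had 25.5, 32.4 and 37.5 CPM with APOE siRNA, against 48.2, 45.6 and 52.3 CPM with control siRNA (-0.62 ± 0.12, edgeR adjusted p = 0.000608). Of 20 genes of sterol esters, efflux and trafficking 10 rose and 7 fell, and LIPA, the lysosomal acid lipase, had 125, 112 and 122 CPM with APOE siRNA, against 94.1, 94.7 and 87.5 CPM with control siRNA (0.38 ± 0.06, edgeR adjusted p = 0.000125). Of 9 metallothionein and zinc genes 4 rose and 1 fell, with the zinc importers SLC39A6 and SLC39A10 at 0.66 ± 0.05 and -0.36 ± 0.08 on the log2 scale.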
